A study of Mus musculus with 6 samples.

Results

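The epidermal differentiation complex is a cluster of genes on mouse chromosome 3 whose products build and line the outermost, dead layer of the skin. Its members were taken as the genes whose symbols begin with Lce, Sprr or S100a and a digit, together with Flg, Flg2, Hrnr, Rptn, Tchh, Tchhl1, Lor, Ivl, Crnn, Crct1, Smcp and Pglyrp4. Of 66 such genes and pseudogenes in the RefSeq table used for naming, 50 had a probe matched by accession, among 18217 genes named on the array, and 46 of these were bright enough to be tested, among 12824 tested genes. The other 16, with Flg (filaggrin), Crnn and Pglyrp4 among them, had no matched probe and were not analysed here. S100a5, S100a7l2, Sprr3 and Smcp had probes that were not well above background on any array.

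Expression was measured in epidermis of mice at postnatal day 0, of a mixed strain, on 6 one-colour Agilent arrays. The 3 AhRCA animals carried an always-active version of AhR, the aryl hydrocarbon receptor, which binds dioxins and other xenobiotics and acts as a transcription factor; it was driven by the promoter of keratin 14, which is active in basal keratinocytes and in the outer root sheath of the hair follicle. The other 3 animals are labelled wild-type (WT), and each sampling took 1 AhRCA mouse and 1 WT littermate. Same-numbered arrays were taken as the 3 littermate pairs, which the labels do not state outright. Pairs 1 and 2 lay on slide 1 and pair 3 on slide 2, so that for pair 3 litter and slide cannot be told apart. On the 6 arrays 56.2% to 61.3% of spots were well above background, 0 were saturated, and the number of arrays limited the precision. The keratinocyte genes Krt5, Krt14, Krt1 and Krt10 were well above background on every array, whereas none of 6 endothelial genes was on any array.

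As keratinocytes leave the basal layer they make involucrin (Ivl), small proline-rich proteins (Sprr), loricrin (Lor) and late cornified envelope proteins (Lce), which transglutaminases cross-link into the cornified envelope. The fused-type S100 proteins, among them filaggrin 2 (Flg2), hornerin (Hrnr), repetin (Rptn) and trichohyalin (Tchh), fill or stiffen the cell beneath it, and trichohyalin is best known from the inner root sheath and medulla of hair. The S100a genes at the flanks of the complex encode small calcium-binding proteins.

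The log2 fold changes of Lor, Ivl, Crct1, Flg2, Hrnr and the 12 Lce1 genes lay between -0.34 and 0.05, and the complex held 1 gene that fell and 0 that rose in AhRCA epidermis. The gene that fell was Sprr4, to a level 2.54-fold below WT. When littermates were compared within pairs, in a fit with the litter as a block (called the paired fit here), Tchh of the fused-type S100 group, S100a1 and S100a3 also passed the test, all of them lower in AhRCA. Tchhl1 and S100a7a passed there too, but were well above background on 0 and 1 AhRCA arrays, entered the test through WT, and were compared with AhRCA values mostly at background. The 1 call among 46 members (2.17%) was near the share among all genes tested (2.18%, of which 1.65% lower and 0.53% higher; limma, Benjamini-Hochberg adjusted p under 0.05). At an unadjusted p under 0.05, 11 members (23.9%) were lower, against 7.57% of all genes, and 0 were higher, against 4.62%. In the paired fit 6 of 46 members (13.0%) were lower, against 2.81% of all genes, and 0 were higher, against 1.07% (3.88% of all genes in either direction). Over the 44 members well above background on all 6 arrays, 4 were lower in the paired fit (9.09%, against 2.32% of the 12057 such genes) and 9 at an unadjusted p under 0.05 (20.5%, against 6.71%).

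The upstream sequences of 4 genes are shown because these genes span the range of responses: Sprr4, the gene that fell; Tchhl1, detected in WT only; Sprr1a, the neighbour of Sprr4; and Lor, whose fold change was near 0. Each runs from 250 bases before to 50 bases after the RefSeq transcription start of GRCm38.p6, 5′ to 3′ on the strand of the gene. They lie at chr3:92500444-92500743, minus strand (Sprr4), chr3:93468504-93468803, plus strand (Tchhl1), chr3:92485832-92486131, minus strand (Sprr1a) and chr3:92083093-92083392, minus strand (Lor). Capitals mark TGANTCA, a loose form of the motif of AP-1, a family of transcription factors that includes Fos and Jun. The pattern takes in the AP-1 sites TGACTCA and TGAGTCA, but also TGAATCA, the match in Tchhl1, and TGATTCA.
Sprr4: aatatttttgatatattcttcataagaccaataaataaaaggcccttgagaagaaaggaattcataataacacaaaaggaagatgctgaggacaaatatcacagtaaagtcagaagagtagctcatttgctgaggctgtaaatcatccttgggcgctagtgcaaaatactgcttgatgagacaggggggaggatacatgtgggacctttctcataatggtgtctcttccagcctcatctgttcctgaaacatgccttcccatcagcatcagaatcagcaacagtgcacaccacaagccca
Tchhl1: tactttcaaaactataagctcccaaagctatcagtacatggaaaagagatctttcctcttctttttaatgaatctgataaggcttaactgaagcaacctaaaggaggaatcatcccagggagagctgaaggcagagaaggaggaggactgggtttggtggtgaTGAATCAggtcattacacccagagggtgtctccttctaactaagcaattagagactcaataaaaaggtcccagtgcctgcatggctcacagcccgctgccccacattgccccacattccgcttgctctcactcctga
Sprr1a: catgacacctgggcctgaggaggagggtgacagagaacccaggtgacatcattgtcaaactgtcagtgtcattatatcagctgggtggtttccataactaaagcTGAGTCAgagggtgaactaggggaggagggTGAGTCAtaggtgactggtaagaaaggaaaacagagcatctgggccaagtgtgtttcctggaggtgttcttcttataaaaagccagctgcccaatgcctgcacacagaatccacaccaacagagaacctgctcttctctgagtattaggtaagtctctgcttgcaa
Lor: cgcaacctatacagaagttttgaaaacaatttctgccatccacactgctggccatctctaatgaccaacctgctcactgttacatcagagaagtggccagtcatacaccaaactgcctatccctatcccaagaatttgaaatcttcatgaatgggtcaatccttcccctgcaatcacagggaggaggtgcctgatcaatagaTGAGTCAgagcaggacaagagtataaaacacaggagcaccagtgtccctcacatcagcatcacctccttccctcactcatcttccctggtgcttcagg

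The window of Sprr1a holds TGANTCA at 2 places, starting 146 and 116 bases before the start. Lor holds 1, 48 bases before it, Tchhl1 holds 1, 87 bases before it, and the window of Sprr4 holds 0. Promoter windows of the same length were found for 40 of the 46 tested members. TGANTCA, searched on both strands, was in the windows of 15 of these 40 genes (37.5%), or in 15 of their 44 windows. Over all genes TGANTCA was in 7.81% of 32851 windows. It was present in Ivl, Flg2, Rptn, Sprr1b, S100a11, S100a16 and 6 of the Sprr2 genes besides those printed. In Flg2, Rptn, Sprr1b, S100a16 and Tchhl1 the only matches were TGAATCA or TGATTCA. Each of the 6 Sprr2 genes had a match at nearly the same place, 193 to 198 bases before the start, so these are not separate occurrences. GCGTG, the core to which AhR and its partner ARNT bind, was in the windows of 4 of 40 members (10%), namely Lce1c, S100a13, S100a3 and Sprr2f. This was 4 of the 44 windows, against 32.4% of all windows. TGANNNNGC, a loose pattern that takes in the antioxidant response element, was in 21 of 40 (52.5%), or in 22 of the 44 windows. It was in 41.3% of all windows, and can overlap TGANTCA, as it does in Flg2. These matches describe letters in short windows and are not measured binding sites.

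Loricrin, the main protein of the cornified envelope, had log2 intensities of 8.20, 8.34 and 8.32 in WT 1 to 3 and of 8.35, 8.42 and 8.27 in AhRCA 1 to 3, each relative to the 75th percentile of its array, which is 0 on this scale. The groups overlapped, and the log2 fold change was 0.05 ± 0.10 (SE, n = 3 per group; adjusted p = 0.999, limma, Benjamini-Hochberg). Involucrin, an early scaffold of the envelope, stood at 3.37, 3.50 and 4.02 in WT and at 3.51, 3.61 and 3.53 in AhRCA. WT 3 was the highest of the 6, and the genotypes did not separate (-0.08 ± 0.18). Crct1, a small cysteine-rich protein gene of the complex, had 8.44, 8.63 and 8.46 in WT and 8.66, 8.66 and 8.22 in AhRCA, a difference of 0.00 with an SE of 0.15.

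Filaggrin 2 and hornerin, which are processed in the granular and cornified layers, followed loricrin. Flg2 had log2 intensities of 6.27, 6.47 and 6.63 in WT and 6.58, 6.42 and 6.44 in AhRCA. Hrnr had 6.75, 6.97 and 7.40 in WT and 7.04, 7.23 and 7.0 in AhRCA. For both genes every AhRCA value lay within the WT range, with log2 fold changes of 0.02 ± 0.13 and 0.05 ± 0.18 (adjusted p = 0.999 for each, limma). Over Lor, Ivl, Crct1, Flg2 and Hrnr the log2 fold changes lay between -0.08 and 0.05, while within pair 1 all 5 were higher in AhRCA and within pair 3 all 5 were lower.

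**Figure D1:**
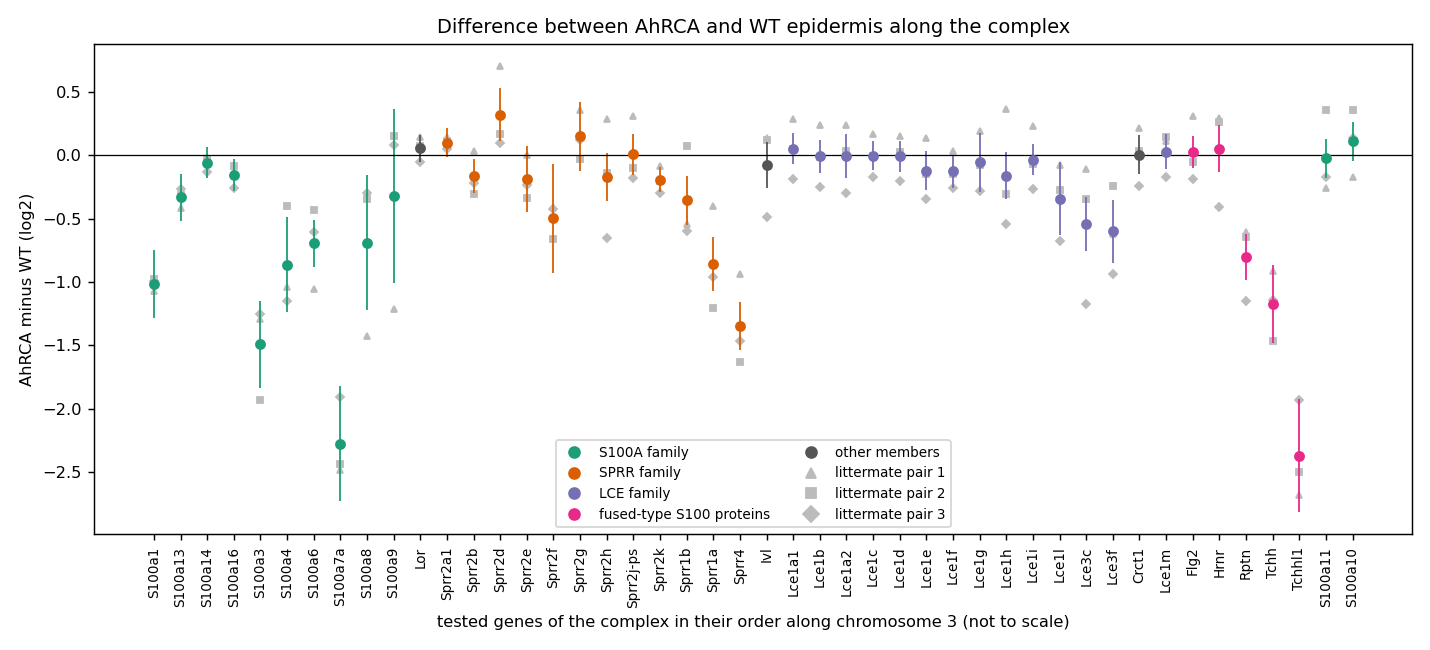
AhRCA minus WT (log2) for the 46 tested genes, in their order along chromosome 3 and not to scale; coloured points are the limma estimates with their SE, colours are families, and grey symbols are the 3 littermate pairs. Lor, Ivl, Flg2, Hrnr and most Lce1 genes sit at 0, whereas Sprr4 stands at -1.35, Tchh at -1.17 and S100a3 at -1.49; the points of S100a7a and Tchhl1 rest on AhRCA values mostly at background and have no rank among these.

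All 14 tested genes of the Lce family were well above background on all 6 arrays, and 0 of them passed in either direction (limma; 2 had an unadjusted p under 0.05, both lower). The 12 Lce1 genes had log2 fold changes between -0.34 and 0.05 with a median of -0.02. Lce1a1, for example, stood at 8.02, 8.22 and 8.30 in WT and 8.31, 8.26 and 8.11 in AhRCA (0.05 ± 0.12), and Lce1m at 8.39, 8.53 and 8.43 in WT and 8.51, 8.67 and 8.25 in AhRCA (0.03 ± 0.14). The groups overlapped for both. The Lce1 genes differed by pair: in pair 1, 11 of 12 were higher in AhRCA, in pair 2, 4 of 12, and in pair 3, 0 of 12. The family's median difference was 0.16 in pair 1, -0.07 in pair 2 and -0.28 in pair 3, and the part of slide and litter in this was not tested. Near-identical Lce1 copies can share probe signal, so that the single genes are not independent readings.

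Lce3 genes, the group that in skin is known to respond to barrier damage, had more negative differences than all 12 Lce1 genes, and neither was called. Lce3c had log2 intensities of 4.86, 5.12 and 5.33 in WT and 4.75, 4.78 and 4.16 in AhRCA, and Lce3f had 2.96, 2.45 and 2.47 in WT and 2.34, 2.20 and 1.53 in AhRCA. Every AhRCA array lay below every WT array for both genes, with AhRCA 3 the lowest. The log2 fold changes were -0.54 ± 0.21 for Lce3c (adjusted p = 0.363, limma) and -0.60 ± 0.25 for Lce3f (adjusted p = 0.409), and both missed the threshold, also in the paired fit (adjusted p = 0.334 and 0.143). The other probe of Lce3c gave -0.55. Within slide 1 the value of Lce3c was -0.23.

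Among the small proline-rich genes 12 were tested, all well above background on all 6 arrays, and Sprr4 alone passed. Sprr4 stood at 0.04, 0.38 and 0.61 in WT 1 to 3 and at -0.90, -1.25 and -0.86 in AhRCA 1 to 3. The groups did not overlap, and every AhRCA animal was lower than its littermate, with differences of -0.94, -1.63 and -1.47 in pairs 1 to 3. The log2 fold change was -1.35 ± 0.19 (adjusted p = 0.0224, limma, Benjamini-Hochberg), and in the paired fit the adjusted p was 0.0273. The call did not survive the removal of WT 2 (adjusted p = 0.10, limma), WT 3 (0.0504), AhRCA 1 (0.0729), AhRCA 2 (0.0871) or AhRCA 3 (0.0595), nor the restriction to slide 1 (0.0830) or dropping the filter on dim probes (0.0582), while its log2 fold change in these settings stayed between -1.42 and -1.21. In the paired fit it was lost without pair 2 (0.106) or pair 3 (0.110).

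Sprr1a, the neighbour of Sprr4 and a cross-bridging protein of the envelope that is induced in stressed epidermis, stood at 5.19, 5.61 and 5.10 in WT and at 4.78, 4.40 and 4.13 in AhRCA. Its groups did not overlap either. The difference of -0.86 ± 0.21 missed the threshold (adjusted p = 0.121, limma, and 0.0881 in the paired fit). Sprr1b, next to it in family, had -0.36 ± 0.20 and was higher in AhRCA in pair 2.

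The 9 tested Sprr2 genes ranged from -0.50 to 0.32 and 0 passed (limma, adjusted p of at least 0.562; 0 had an unadjusted p under 0.05). Sprr2d had log2 intensities of 4.54, 4.44 and 4.40 in WT and 5.25, 4.61 and 4.49 in AhRCA, where AhRCA 1 was the highest of the 6 arrays and the groups overlapped, for 0.32 ± 0.21. Sprr2g, a transcribed pseudogene in the RefSeq table, had 0.34, 0.36 and -0.29 in WT and 0.70, 0.33 and -0.17 in AhRCA. Both genotypes of pair 3 were lowest, and the difference was 0.15 ± 0.27. Sprr2a1 was read by a pair of probes that differed, a fact singled out after its values were seen: the brighter gave 0.10 ± 0.11 and the dimmer -1.87 ± 0.46 (adjusted p = 0.159 when every kept probe was fitted singly). Of the 6 members with more than 1 kept probe, the other 5 had probe values within 0.1 of each other. Copies of Sprr2a share nearly all of their sequence, so that neither probe can be assigned to 1 copy.

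**Figure D2:**
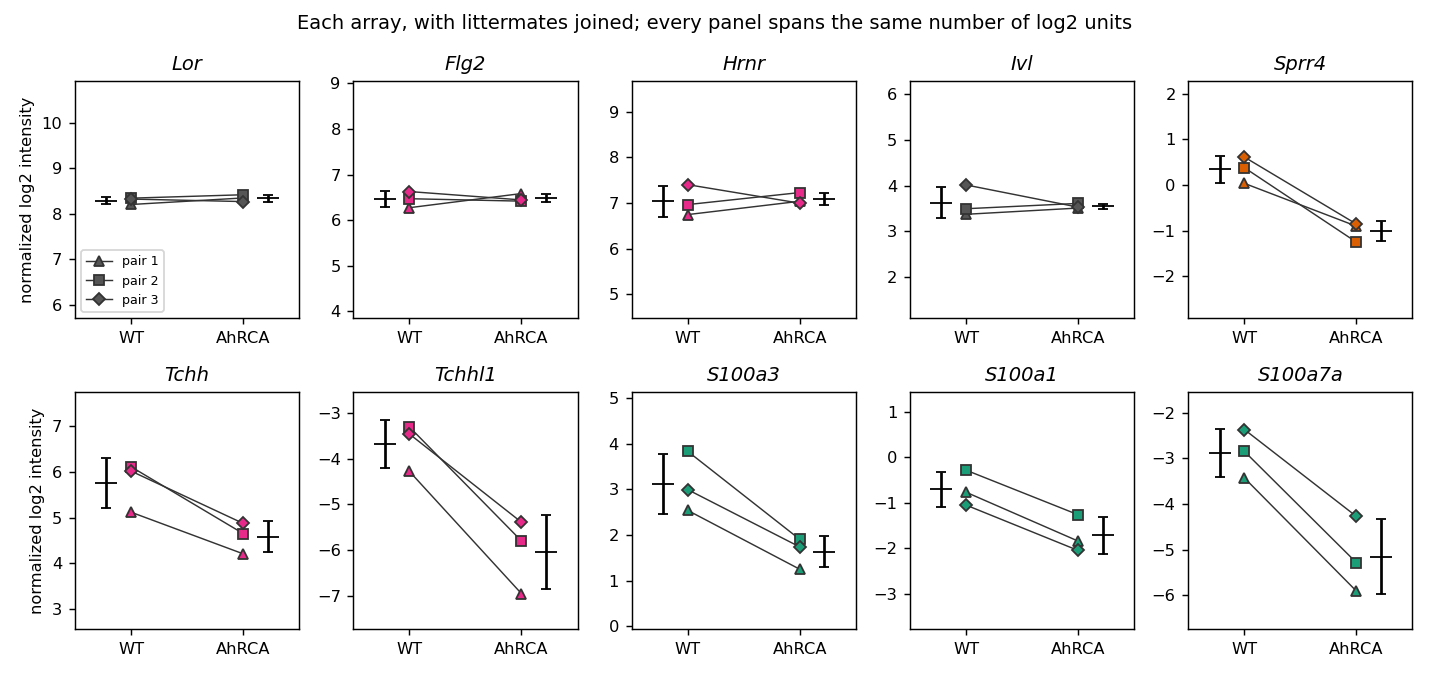
Normalized log2 intensity on each array for 10 genes, with littermates joined by a line (symbols are pairs 1 to 3) and bars giving the mean and SD of each genotype (n = 3); all panels span the same number of log2 units. In Lor, Flg2, Hrnr and Ivl the lines cross or lie flat, whereas in Sprr4, Tchh, Tchhl1, S100a3, S100a1 and S100a7a all 3 lines fall and the genotypes do not overlap.

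Of the 5 tested fused-type S100 genes, 0 passed (limma; 3 had an unadjusted p under 0.05, all lower) and 2 passed in the paired fit. Trichohyalin, which hardens the inner root sheath and the medulla of hair, stood at 5.12, 6.11 and 6.02 in WT and at 4.21, 4.65 and 4.87 in AhRCA. WT 1 and AhRCA 1 were the lowest of their groups, and the groups did not overlap. The log2 fold change was -1.17 ± 0.30 (adjusted p = 0.138, limma) and passed in the paired fit (SE 0.13, adjusted p = 0.0245), but not with the slide as the block (0.0942). The dimmer probe of Tchh gave -1.18. When every kept probe was fitted singly, that probe missed the threshold in the paired fit (adjusted p = 0.141, against 0.0414 for the brighter). The paired call of Tchh was also lost without pair 2 (adjusted p = 0.0888) or pair 3 (0.0988).

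Tchhl1, the trichohyalin-like neighbour of Tchh, was dim: -4.28, -3.30 and -3.46 in WT and -6.96, -5.80 and -5.39 in AhRCA. It was well above background on all 3 WT arrays and on 0 AhRCA arrays, so that it was tested only through WT. With a bound on its AhRCA values it was 2.48-fold lower in AhRCA. This bound sets the mean of WT against the mean, for each AhRCA array, of the higher of the probe's value and the lowest signal well above background. The fitted difference was -2.37 ± 0.44 (adjusted p = 0.0543, limma), with 0.0114 in the paired fit, and the pairs gave -2.68, -2.50 and -1.93. With normexp background correction it was -0.68 (adjusted p = 0.122, limma), smaller than the bound, which holds for the processed signal only. In the paired fit the call was lost without pair 2 (0.0517).

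Repetin, an envelope precursor encoded beside Tchh, had 2.75, 2.57 and 3.21 in WT and 2.15, 1.93 and 2.06 in AhRCA. Its groups did not overlap. Its difference of -0.80 ± 0.18 missed the threshold (adjusted p = 0.0931, limma, and 0.0636 in the paired fit), and lay at it with the slide as the block (0.05), where it was called. Rptn, Tchh and Tchhl1 are neighbours in the RefSeq order and were lower in AhRCA in each of the 3 pairs, whereas Flg2 and Hrnr, next on the other side, were not.

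The S100A family had 12 tested genes, of which 11 had negative fold changes and 0 passed (limma; 4 had an unadjusted p under 0.05, all lower). In the paired fit 3 passed, all lower. S100a3, a protein of the hair cuticle, stood at 2.54, 3.83 and 2.99 in WT and at 1.25, 1.90 and 1.74 in AhRCA. WT 2 was the highest, and no AhRCA array reached the WT range. The log2 fold change was -1.49 ± 0.34 (adjusted p = 0.101, limma; 0.0237 in the paired fit; 0.106 with the slide as the block). This paired call was lost without pair 1 (0.0515), pair 2 (0.0574) or pair 3 (0.0798).

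S100a7a, the mouse relative of human psoriasin, stood at -3.43, -2.85 and -2.37 in WT and at -5.91, -5.29 and -4.27 in AhRCA. It was well above background on 3 WT arrays and on 1 AhRCA array. The pairs were close to each other, with -2.48, -2.44 and -1.91, and the log2 fold change was -2.28 ± 0.45 (adjusted p = 0.0644, limma; 0.0109 in the paired fit). The paired adjusted p was between 0.0309 and 0.0472 with 1 pair left out, but without pair 3, the pair whose AhRCA array detected it, this sets WT against background values only. With normexp background correction the difference was -0.88 (adjusted p = 0.0706).

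S100a1, a calcium sensor best known from muscle, had -0.77, -0.29 and -1.05 in WT and -1.84, -1.26 and -2.05 in AhRCA. The groups did not overlap, and the 3 pairs gave nearly the same difference, -1.07, -0.98 and -0.99. The log2 fold change was -1.01 ± 0.27 (adjusted p = 0.146, limma; SE 0.08 and adjusted p = 0.0138 in the paired fit; 0.0625 with the slide as the block), and the paired call was lost without pair 1 (0.0501), pair 2 (0.0799) or pair 3 (0.0596). Among 8 skeletal muscle genes 3 were not well above background on any array, and their summed level, in units of the 75th percentile, was between 3.42 and 3.92 in WT and between 3.03 and 4.35 in AhRCA. Myh8, the perinatal muscle myosin, was lower in AhRCA in each pair, with -1.61, -1.32 and -0.76, and passed in the paired fit (adjusted p = 0.0444; 0.140 in limma without the block), a call lost without any 1 pair (0.0566 to 0.184). The 5 tested muscle genes went both ways, 2 with positive and 3 with negative values, and their median was -0.03. Myl1 was higher in AhRCA in each pair, with 0.81, 0.28 and 1.13. The part of muscle RNA in the values of S100a1 was not tested.

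S100a6, calcyclin, and S100a4, known from fibroblasts and myeloid cells, had differences of -0.70 ± 0.19 (adjusted p = 0.153, limma) and -0.86 ± 0.38 (adjusted p = 0.441), and both were lower in AhRCA in all 3 pairs. Both missed the threshold in the paired fit (adjusted p = 0.0929 for S100a6 and 0.0853 for S100a4). The summed level of the Langerhans and dendritic cell list lay between 12.2 and 17.7 in WT and between 8.93 and 11.9 in AhRCA, that of the fibroblast list between 22.9 and 30.9 and between 23.6 and 24.6. Members of the first list went both ways: of 8 tested, 5 had negative and 3 positive values. In the paired fit 3 were lower (Cd207, Cd74 and H2-Ab1) and 1 was higher (Adgre1), where the shares over all genes were 2.81% and 1.07%. Cd74 had -1.15 (adjusted p = 0.183, limma, and 0.0114 in the paired fit). H2-Ab1 had -1.64 (adjusted p = 0.227, limma, and 0.0237 in the paired fit). Cd207, the Langerhans cell lectin langerin, was well above background on 3 WT and 0 AhRCA arrays and so was tested only through WT. Its fitted difference, against AhRCA values at background, was -2.59 (adjusted p = 0.0206, limma). It was -0.75 with normexp background correction (adjusted p = 0.0448, limma). The bound described for Tchhl1 put Cd207 3.09-fold lower in AhRCA, for the processed signal only. The macrophage gene Adgre1 rose (0.67 ± 0.10, adjusted p = 0.0321, limma). With 1 array left out, Cd207 kept its call only without WT 3 or AhRCA 3, and Adgre1 lost it each time (adjusted p between 0.0674 and 0.160, limma). Epcam, also in that sum, is expressed by keratinocytes too. Of 8 tested fibroblast genes 0 passed (limma), 4 had positive and 4 negative values, and 2 had an unadjusted p under 0.05, both lower. Dcn, the brightest of the 8, had -0.18, Col1a2 had -1.19 (adjusted p = 0.0623, limma) and Col3a1 had 0.85. The part of these cell types in the values of S100a4 was not tested.

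S100a8 and S100a9, the subunits of calprotectin, are abundant in neutrophils and in stressed keratinocytes. S100a9 stood at 4.49, 2.42 and 1.89 in WT and at 3.27, 2.57 and 1.97 in AhRCA, and S100a8 at 0.51, -1.39 and -1.33 in WT and at -0.92, -1.73 and -1.63 in AhRCA. WT 1 was the highest array for both genes and AhRCA 1, its littermate, the next. The differences of -0.32 ± 0.69 and -0.69 ± 0.53 were within this spread (adjusted p = 0.999 and 0.844, limma). Of 11 neutrophil markers on the array 7, among them Camp, Ngp, Ltf and Elane, were not well above background on any array, and 0 of the 11 reached the filter for testing.

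The remaining S100A genes had differences between -0.33 and 0.11. S100a10, the partner of annexin A2, had 4.54, 4.37 and 4.66 in WT and 4.37, 4.73 and 4.8 in AhRCA and was the only member of the family with a positive value (0.11 ± 0.15). S100a11, S100a14 and S100a16, all expressed by keratinocytes, had -0.02, -0.06 and -0.16, and S100a13 had -0.33 ± 0.19. S100a13, S100a14 and S100a16 were lower in AhRCA in all 3 pairs but missed the threshold in the paired fit (adjusted p = 0.136, 0.799 and 0.459). The 4 genes S100a10, S100a11, S100a14 and S100a16 had adjusted p of at least 0.856 (limma).

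**Figure D3:**
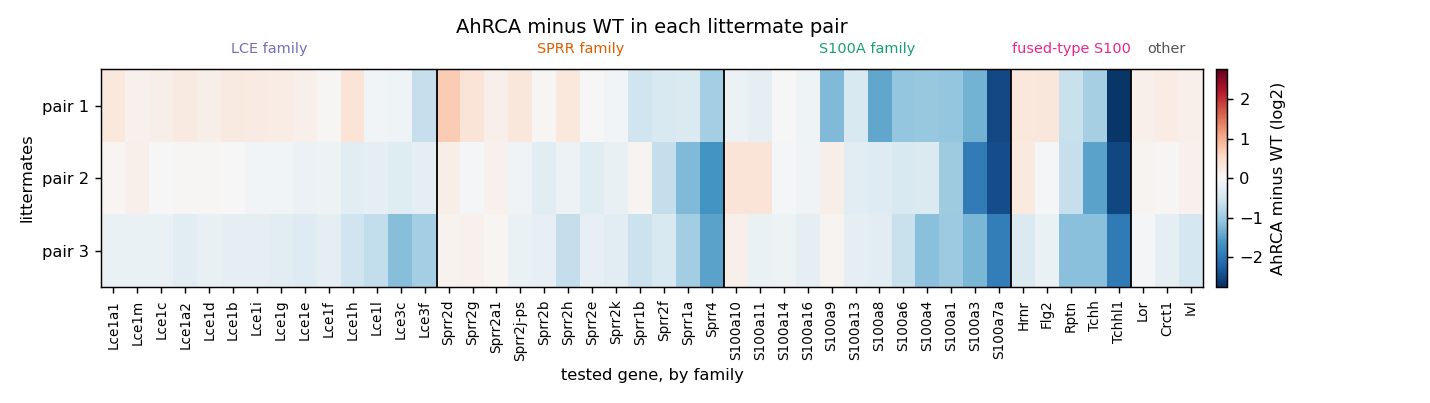
AhRCA minus WT (log2) in each of the 3 littermate pairs (rows) for the 46 tested genes (columns), grouped by family and sorted within it by the fitted difference; blue is lower in AhRCA and red higher. The Lce1 genes turn from pale red in pair 1 to pale blue in pair 3, whereas Sprr4, S100a7a, S100a3, S100a1, Tchh and Tchhl1 are blue in all 3 pairs.

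Set side by side, the families had median log2 fold changes of -0.05 (Lce, 14 genes), -0.18 (Sprr, 12 genes), -0.51 (S100A, 12 genes), -0.80 (fused-type S100, 5 genes) and 0.00 (Lor, Ivl and Crct1), against 0.00 for all genes tested. These medians moved with single arrays: without WT 1 those of Lce, Sprr and S100A were -0.20, -0.17 and -0.21, without WT 3 those of Lce and S100A were 0.01 and -0.83, and without AhRCA 3 those of Sprr and S100A were -0.05 and -0.35. Tchhl1 and S100a7a, which entered the test through WT, count in the medians of their families. Requiring detection on all 6 arrays leaves both out, and the medians were then -0.33 for S100A and -0.39 for the fused-type S100 genes. Of the S100A genes 9 of 12 were lower in AhRCA in all 3 pairs and of the fused-type genes 3 of 5, compared with 4 of 12 Sprr genes and 3 of 14 Lce genes. Over the complex 19 of 46 members (41.3%) were lower in all 3 pairs and 2 (4.35%) were higher in all 3, where the shares over all genes were 20.1% and 19.7%. The groups did not overlap for 12 members, all lower in AhRCA (26.1%, against 8.84% of all genes), and for 0 members in the other direction (7.52% of all genes). Of the 46 tested members 44 were well above background on all 6 arrays. Tchhl1 and S100a7a, the exceptions, entered through their WT arrays and count among the 12 and the 19; over the 44 the groups did not overlap for 10 (22.7%, against 8.19%) and 17 were lower in all 3 pairs (38.6%, against 19.3%). Median SDs within a genotype were 0.24 in WT and 0.23 in AhRCA over the members, and 0.18 and 0.17 over all genes.

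Other genes of the cornified envelope gave 0 calls. A list of 25 tested genes not among the members taken here gave a median of 0.00. It held the transglutaminases Tgm1, Tgm3 and Tgm5, the scaffold proteins Evpl and Ppl and the filaggrin-processing protease Asprv1. Of these 25 genes 0 passed (limma), and 3 had an unadjusted p under 0.05, all lower. Padi3, a peptidylarginine deiminase that modifies trichohyalin in hair, had the largest difference, -1.47 ± 0.31 (adjusted p = 0.0780, limma), and passed in the paired fit (0.0144). Padi1, its relative of the epidermis, came next with -0.47 (adjusted p = 0.374).

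Of 24 tested regulators of keratinocyte differentiation 0 passed (limma), 19 had positive values and the median was 0.19. At an unadjusted p under 0.05, 5 were higher and 1 was lower (limma), against 4.62% and 7.57% of all genes. The groups did not overlap for 8 that were higher and 1 that was lower, against 7.52% and 8.84% of all genes. The largest differences were those of Nfe2l2, which encodes the antioxidant factor NRF2 (0.69 ± 0.15, adjusted p = 0.0880, limma), and Hes1, a target of Notch (0.56 ± 0.14, adjusted p = 0.132). Ahr itself had -0.49 (adjusted p = 0.0653), and whether its probe reads the transgene is not given in the sources used here. Of 10 wound-type keratinocyte genes 0 passed (limma), 4 had positive and 6 negative values, and the median was -0.07. An unadjusted p under 0.05 was found for 2, Krt6a and Krt16, both lower. The largest differences were -1.19 for Krt6a and -1.0 for Krt6b, keratins of wounded and follicular epidermis. WT 1 was the highest array for both, at 5.09 and 4.22, and without it the differences were -0.63 and -0.38.

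Genes of the hair shaft and inner root sheath were examined beside Tchh, Tchhl1 and S100a3. Of 8 tested keratins and regulators of the hair cuticle and cortex 2 fell and 0 rose, all 8 had negative values and the median was -1.69. The genes that fell were Krt34, a hair cortex keratin, (-2.19 ± 0.37, adjusted p = 0.0414, limma) and Krt33b (-1.06 ± 0.17, adjusted p = 0.0356), and in the paired fit 6 of 8 fell. Krt34 kept its call (limma) only without WT 1 when single arrays were left out, and Krt33b only without AhRCA 3; the mean of the probes of Krt33b gave -1.76. Of 8 genes of the inner root sheath and medulla 0 passed (limma; 4 had an unadjusted p under 0.05, all lower), Gata3 (0.19) and Foxn1 (0.12) had positive values, and in the paired fit 4 fell, namely Padi3, Krt27, Krt71 and Krt25. Krt71, a keratin of the inner root sheath, had -1.24 ± 0.32 (adjusted p = 0.136; 0.0117 in the paired fit).

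The summed level of the cuticle and cortex list, with all 8 genes on the array well above background on at least 1 array, was between 44.7 and 90.9 in WT and between 21.6 and 33.0 in AhRCA. That of the inner root sheath list was between 180 and 343 in WT and between 84.8 and 142 in AhRCA. In these bulk samples fewer cells of a type and less RNA per cell cannot be told apart, and the part of hair follicle content in the values of Tchh, Tchhl1 and S100a3 was not tested. Of the 8 keratinocyte genes, 1 fell, Krt15, a keratin of basal and follicle stem cells (-0.72 ± 0.13, adjusted p = 0.0460, limma; 0.0534 in the paired fit; its call held only without WT 1 when single arrays were left out). The median of the list was 0.01.

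**Figure D4:**
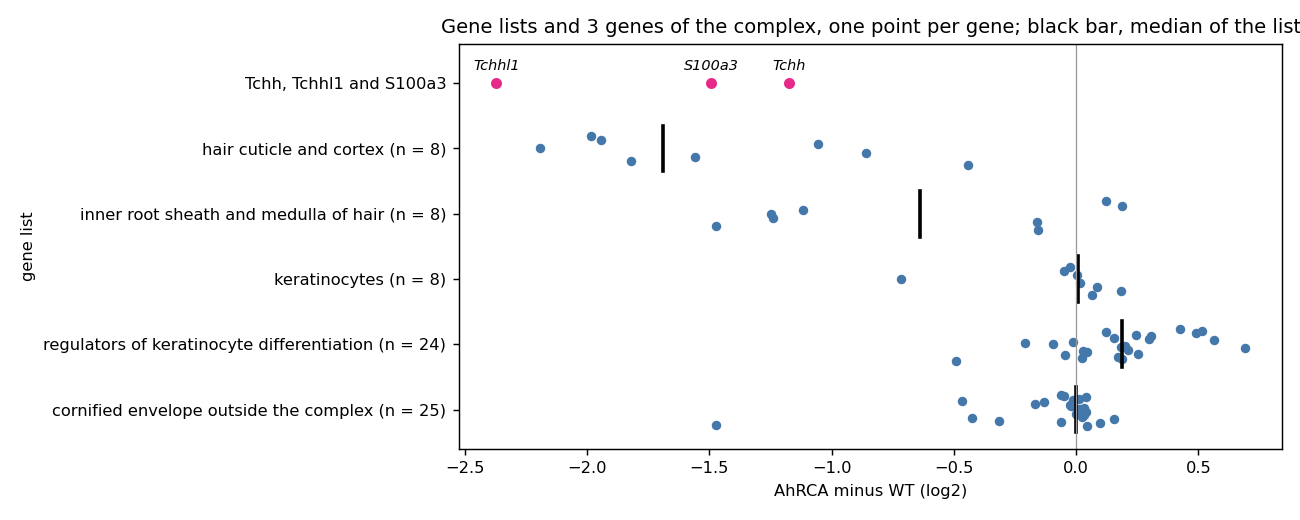
AhRCA minus WT (log2) for 5 lists of genes not among the members, and for Tchh, Tchhl1 and S100a3 in the top row. Each gene is 1 point, a black bar marks the median of the list, and vertical scatter within a row carries no value. The cornified envelope list centres on 0.00, while the hair cuticle and cortex list centres on -1.69, beside -1.17 for Tchh and -1.49 for S100a3; the point of Tchhl1 rests on AhRCA values at background.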

How the data were processed

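Epidermal RNA of 3 WT and 3 AhRCA mice was hybridized to 1-colour Agilent arrays. The deposited intensities were made with Agilent Feature Extraction 10.7.3.1, per the file headers. The authors also deposited log2 values, centred on each probe's median over 6 arrays; set against the scanner values, their differences had a slope of 1 on log2 intensity, so scale and direction are those of the intensities, and column medians were -0.0705, -0.0495 and 0.0827 for WT and 0.0283, 0.0638 and -0.0710 for AhRCA.

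The processed signal of each spot was divided by the 75th percentile of its array (627 to 754) and put on a log2 scale; control spots and outlier spots (56 to 94 per array) were left out and replicate spots averaged. Of 41174 probes 26690 matched 1 symbol, 0 several and 14484 none, through unversioned accessions of the GRCm38.p6 RefSeq table. Probes well above background on at least 3 arrays were kept, and the brightest stood for its gene. The array design names another build, so only the gene order of that table was used, besides promoter coordinates. The genotypes were compared with limma 3.58.1 (R 4.3.3; lmFit, eBayes, two-sided, Benjamini-Hochberg over 12824 genes, threshold 0.05), tested on simulated data.

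Same-numbered arrays were taken as littermates from the design text. Their deviations from the group means correlated at 0.337, 0.372 and 0.55 over 12821 genes, other WT and AhRCA arrays between -0.416 and 0.194. Deviations within a group cancel each other by construction, so these correlations are not independent. Pair 3 (0.55) alone lay on slide 2, so that litter and slide cannot be told apart there. Within slide 1 same-numbered arrays gave 0.337 and 0.372, and the others 0.194 and 0.15. Alternatives were normexp (offset 50, on median spot signals since mean signals were not in the files, unlike planned), quantile and median scaling, other filters, the mean of probes, litter or slide as a block, slide 1 alone, the authors' table and leaving out each array. Added after seeing the data were the block without each pair, single-probe fits, counts over genes detected on all 6 arrays and alternatives for further named genes. Members and lists were chosen with earlier results of these data known. Values on each array are given for Lor, Ivl, Flg2 and Hrnr, for members called with or without the block, and for up to 2 members per family with the largest difference in each direction; Rptn, Sprr2a1, S100a4, S100a6, S100a8 and S100a9 and other members outside this rule were added after seeing their values. Of the lists of genes not among the members, called genes were named or, where none was called, the 2 with the largest change.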

Additional observations from a re-analysis of the deposited data

How the results depend on the processing

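The number of members called lower was 1. It was 2 under quantile normalization, 3 under median scaling, 4 with slide (Rptn, S100a7a, Sprr4 and Tchhl1) and 6 with litter pair as a replicate block. It was 0 with no filter on dim probes (limma; 9 at an unadjusted p under 0.05) and 0 within slide 1 (11). When single arrays, or single pairs with the replicate block, were left out, it lay between 0 and 4, and it was 0 without WT 2, WT 3, AhRCA 1 or AhRCA 2, each left out alone (9 to 12 at an unadjusted p). The number called higher was 0 in every setting (0 at an unadjusted p, except 1 with the block without pair 3). The replicate block changed no other call among the named members than those given beside them. Family medians stayed within their SD over the pairs, which is wide (S100A between -0.83 and -0.21 with single arrays left out), except that of the fused-type S100 genes, which was -0.39 when detection on all 6 arrays was required, which leaves Tchhl1 out. Signs turned for genes near 0: Crct1 had -0.013 with normexp and -0.043 under quantile normalization, Flg2 -0.0057 under quantile normalization and Ivl 0.13 within slide 1. Sprr2a1 had -0.88 as the mean of its probes and -1.87 by its dimmer probe. With arrays or pairs left out, Lce1a1 lay between -0.070 and 0.17, Lce1m between -0.068 and 0.14, Sprr2g between -0.064 and 0.38, S100a10 between -0.015 and 0.25, Hrnr between -0.096 and 0.28, Flg2 between -0.12 and 0.13, Crct1 between -0.10 and 0.15 and Ivl between -0.21 and 0.13. Taken by what was left out, a WT array gave -0.030 to 0.11 for Lce1a1, -0.067 to 0.11 for Flg2, up to 0.23 for Hrnr and up to 0.12 for Ivl, an AhRCA array down to -0.072 for Crct1, and a pair with the replicate block -0.028 and -0.014 for Lce1m, -0.071 and -0.057 for Hrnr and -0.014 for Crct1. Signal near background limits Tchhl1 and S100a7a.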

Other observations

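Over the 46 tested members, deviations of littermates from their group means correlated at 0.704, 0.425 and 0.719 in pairs 1, 2 and 3, and those of WT and AhRCA arrays of different pairs at values between -0.669 and 0.196. This is a description across genes, which share arrays and are not independent replicates. Deviations within a group cancel each other by construction, and pair 3 alone lay on slide 2, so the correlations are not independent of each other. S100a1 had the smallest spread between pairs among the 6 genes that passed with the block: its level in WT ranged from -1.05 to -0.29 while the difference from the littermate stayed between -1.07 and -0.98. Sprr2f likewise ranged from -0.37 to 0.93 in WT and differed from its littermate by -0.41, -0.66 and -0.43 (adjusted p = 0.887 with limma, and 0.0733 with the pair as a block).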
